A study of Mus musculus with 18 samples.

Results

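Regions gained after Brg1 deletion are stretches of the genome where both peak lists of Brg1-deleted mouse embryonic stem (ES) cells held a peak and neither list of their ethanol controls did. Peaks of all 18 lists that shared 1 bp or more were merged into 377189 regions, of which 1571 met this rule (0.417% of all regions). The members were thus chosen by their presence in these 4 lists, and every value of the Brg1 line below is a description without a test. Outside the Brg1 line, 1313 of the 1571 (83.6%) held a peak in at least 1 of the 7 control lists, 5 from wild-type cells in DMSO and 2 from Baf53afl/- cells in ethanol. The same share was 67.1% over all regions, which include regions found in a single list, whereas a member needed a peak in 2. With every list cut to its 46431 top-scoring peaks, each control list held a peak in 8.91% to 13.0% of the members. Over all regions these lists then held 11.5% to 12.1%. The other 258 members (16.4%) had no peak in any of these 7 lists.

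Open chromatin was profiled by ATAC-seq, which tags accessible DNA with a transposase, in 18 libraries of sorted viable ES cells kept in serum and LIF. Brg1fl/fl; Actin-CreER cells, whose Cre is switched on by tamoxifen, received 0.8 µM tamoxifen for 24 h, or ethanol as control, followed by 48 h without either, with 2 passages per group. Baf53afl/-; Actin-CreER cells were handled in the same way, also with 2 passages per group, and their ethanol controls already lacked 1 Baf53a allele. Wild-type cells received 1 µM ICRF-193 or DMSO for 24 h (2 passages per group) or for 1 h (3 per group by the sample titles, although the treatment protocol names only 24 h). Replicates are passages of one line, and the lists give no way to check the deletion itself. The number of peaks per list ran from 46431 to 129880. In the Brg1 line it was 107473 and 85007 with ethanol and 84763 and 46431 with tamoxifen, so that a gained region had to appear in the shortest of all 18 lists. Read depth is unknown, since the lists hold positions and 1 score per peak and no read counts.

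Brg1 is the ATPase of the BAF (SWI/SNF) complex, which uses ATP to slide and evict nucleosomes and keeps many enhancers of ES cells open. Baf53a is an actin-related subunit of the same complex. ICRF-193 is a catalytic inhibitor of topoisomerase II, the enzyme that passes one DNA duplex through another. In these lists 13516 regions (3.58% of all regions) met the reverse rule, present in the ethanol pair and missing from the tamoxifen pair, and are called lost below.

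Most gained regions scored below the middle of each tamoxifen list. Strength is given as the percentile of a peak's score among all peaks of its own list, where 50 is the middle of the list and the score is the authors' own value without a stated unit. The 1571 regions had a median percentile of 41.3 in the replicate 1 tamoxifen list and 32.6 in the replicate 2 list. The middle 50% of the members ran from 23.2 to 58.1 in replicate 1 and from 17.2 to 48.4 in replicate 2. In contrast, the 27080 regions with a peak in all 4 Brg1-line lists had median percentiles of 82.6 and 68.8 in the same lists. Lost regions, chosen by the reverse rule, had 55.7 and 45.2 in the replicate 1 and replicate 2 ethanol lists. The ethanol lists are longer, and percentiles from lists of unlike length cannot be set against each other directly. With lists cut to 46431 peaks, 47.6% and 48.4% of lost regions kept their peak in ethanol replicates 1 and 2. Of the gained regions, 43.7% kept theirs in tamoxifen replicate 1, and replicate 2 has no more peaks to cut. Only 33 members lay above percentile 80 in replicate 1 and 19 in replicate 2. Over both lists, 6 members had a mean percentile above 80 and 55 one under 10. The order of members by strength was only loosely shared between the passages (Pearson r of 0.26 over the 1571 members, which come from the same 2 libraries and are not replicates).

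Regions just outside the rule were stronger where an ethanol list held the extra peak and weaker where a tamoxifen list lacked one. The 2959 regions with a peak in both tamoxifen lists and in 1 of the ethanol lists had median percentiles of 52.7 and 39.1 in the tamoxifen lists, above the 41.3 and 32.6 of the members. Of these, 1702 had their ethanol peak in replicate 1 alone, at a median percentile of 48.5, and 1257 in replicate 2 alone, at 43.3. Regions with a peak in a single tamoxifen list and in no ethanol list were far more numerous and weaker. Tamoxifen replicate 1 alone held 22811 of them, at a median percentile of 22.6, and replicate 2 alone held 7968, at 18.9. The gained regions make up 4.97% of the 31610 regions shared by both tamoxifen lists.

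Their merged width lay between that of all regions and that of regions found in more lists. It ran from 117 to 1416 bp with a median of 350 bp, against 185 bp for all regions, 439 bp for lost regions and 786 bp for regions in all 4 lists. Under 300 bp lay 71.2% of all regions, 34.8% of the gained, 17.1% of the lost and 1.65% of the regions in all 4 lists, and 9 gained regions reached 1000 bp. The members' tamoxifen peaks themselves were narrower than their lists, with median widths of 180 bp in replicate 1 and 145 bp in replicate 2, where the whole lists had 213 and 186 bp. In 1446 members the peaks of both passages shared at least 1 bp, with a median overlap of 112 bp. In the other 125 members they were joined only through peaks of other libraries.

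**Figure D1:**
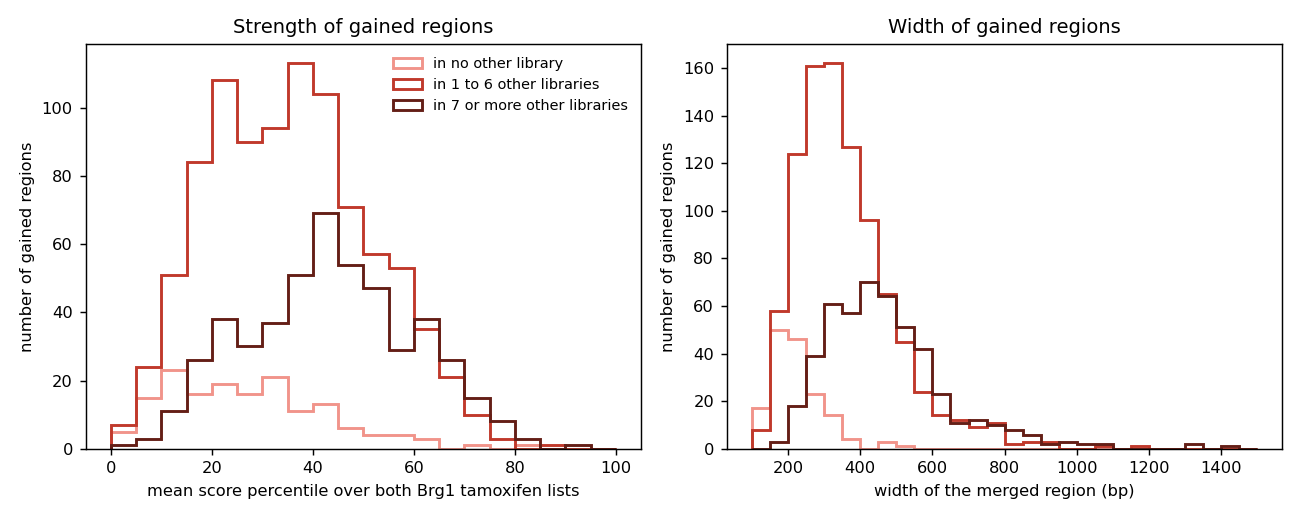
Histograms of the 1571 gained regions by mean score percentile over both Brg1 tamoxifen lists (left, 0 to 100) and by merged width in bp (right), drawn separately for regions with a peak in 0, in 1 to 6 and in 7 or more of the 14 libraries outside the Brg1 line. The 158 regions found in no other library have a median width of 212.5 bp, and the 487 found in 7 or more have 446 bp.

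Detection in other libraries varied widely among the members. Of the 14 libraries outside the Brg1 line, a member held a peak in a median of 4, a lost region in 8 and a region in all 4 Brg1-line lists in 14. There were 158 members (10.1%) with no peak in any other library, 168 with a peak in 1, 487 (31.0%) with a peak in 7 or more, and 3 with a peak in all 14. Over all regions 10.7% had no peak in any other library, close to the share of the members, and 18.3% had one in 7 or more. Among lost regions these shares were 1.81% and 65.5%. Widely detected members were wider and somewhat stronger. Those found in 7 or more libraries had a median mean percentile of 43.6, and those found in none had 25.9. By mean percentile the weakest 25% of the members held 74 of the 158 regions found nowhere else, and the strongest 25% held 14. The width is that of peaks merged over all lists, so it grows with the number of libraries that hold a peak.

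**Figure D2:**
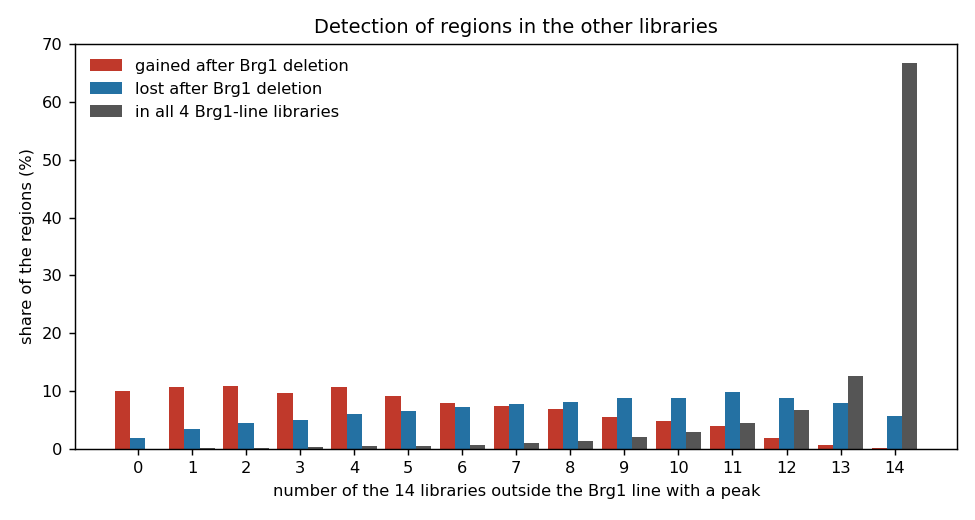
Share of regions (vertical axis, %) by the number of the 14 libraries outside the Brg1 line with a peak (horizontal axis), for regions gained or lost after Brg1 deletion and for those in all 4 Brg1-line lists. Gained regions are spread widely, with 10.1% at 0, 6.87% at 8 and 31.0% at 7 or more. Of the regions in all 4 lists, 66.7% stand at 14.

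The strongest gained region lay on chromosome 17 from 3077827 to 3078038 (mm9, as all positions here). It scored at percentiles 91.8 and 96.0 in the tamoxifen lists. This 212 bp region also held a peak in 8 other libraries: 4 of 5 DMSO lists, 2 of 5 ICRF-193 lists, and 1 list of each Baf53a group. In these lists its percentile ran as high as 95.8, in the replicate 1 list of ICRF-193 for 24 h. The second, on chromosome 12 from 68160270 to 68160618, stood at percentiles 84.3 and 92.6 and was present in 4 other libraries. The third stood apart by its absence elsewhere. On chromosome 4 from 145438194 to 145438361, it had percentiles of 87.1 and 82.1 after deletion and no peak in any of the 16 other lists.

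The next 7 members by strength were found widely. On chromosome 18, the region from 21171344 to 21171805 had percentiles of 74.9 and 93.4 in the Brg1 tamoxifen lists and was detected in 7 other libraries. Its percentiles were 59.9 and 4.52 with Baf53a ethanol and 17.2 and 38.0 with Baf53a tamoxifen. Also on chromosome 18, that from 3008488 to 3008856 was detected in 12 other libraries, among them all 4 Baf53a lists. Its percentile was 81.0 and 77.7 after Brg1 deletion, 68.1 and 76.6 with Baf53a ethanol, and 43.6 and 38.8 with Baf53a tamoxifen. On chromosome 3, the region from 32358668 to 32359162 also held a peak in 12 other libraries (78.3 and 79.2 after Brg1 deletion). The other 4 each held a peak in 10 other libraries. They were chr7:70480032-70480448, chr6:51978065-51978373, chr19:60386481-60386942 and chr10:66463876-66464305. Of the 10 strongest members, 9 thus had a peak in other lines or treatments, at least 1 of them a control list in each case.

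**Figure D3:**
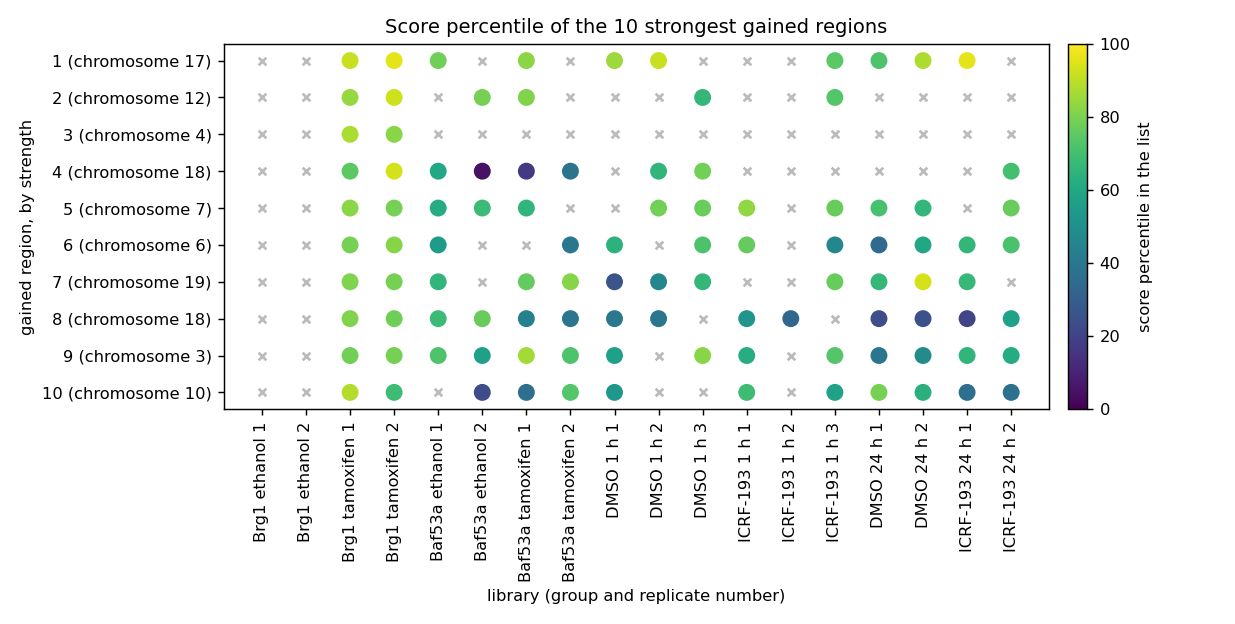
Score percentile (colour, 0 to 100 within each list) of the 10 strongest gained regions (rows, with chromosome) in all 18 libraries (columns), where a cross marks no peak. The ethanol columns of the Brg1 line are empty by the rule, and the third region, on chromosome 4, has a peak in the 2 Brg1 tamoxifen libraries alone.

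Members found in the tamoxifen lists of the Brg1 line and nowhere else were weaker after the first. The second strongest of these 158 lay on chromosome 5 from 130285966 to 130286289 (percentiles 77.3 and 63.8). It was followed by chr7:24668932-24669133 (68.7 and 57.8), chr9:79747200-79747396 (75.6 and 48.4) and chr4:130983913-130984053 (64.3 and 56.2). All 5 were at most 324 bp wide, and the 158 lay on 20 chromosomes.

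At the other end, 3 members had a peak in every library except the Brg1 ethanol pair. One of them had a higher percentile in every list outside the Brg1 line than after Brg1 deletion, although these lists differ in length. On chromosome 12 from 74018672 to 74019354 (683 bp), the Brg1 tamoxifen lists had percentiles of 36.2 and 36.8, the Baf53a lists 77.9 to 91.9, and the wild-type lists 38.6 to 90.9. Here the ethanol lists of the Brg1 line stood apart from the other 16. The region on chromosome 14 from 60795468 to 60796883 was the widest member, at 1416 bp, and had percentiles of 54.7 and 3.3 in the tamoxifen lists. On chromosome 19 from 8872739 to 8873177, the values were 65.0 and 34.1. The other 4 of the 5 widest members, of 1073 to 1310 bp, lay on chromosomes 4 and 5 and were found in 5 to 11 other libraries. The 3 weakest members all had percentiles of 0.944 and 1.69 in the tamoxifen lists. Those on chromosomes 17 (63550782 to 63550995) and 2 (71084353 to 71084638) were found in no other library, and that on chromosome 15 (85349812 to 85350441) in 7 wild-type libraries, at percentiles up to 69.8.

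Gained regions lay on every chromosome, and whether they clustered more than other regions of like number was not tested. Chromosomes 2 and 5 held the most, with 133 (8.47%) and 130 (8.27%), where they hold 8.04% and 6.71% of all regions. The largest shortfall against all regions was on X, with 19 members (1.21%) where 3.20% of all regions, 2.40% of the lost and 2.31% of those in all 4 lists lie there. Of the regions shared by both tamoxifen lists, 2.77% on X were gained, and on the autosomes this share ran from 3.71% on chromosome 11 to 6.23% on chromosome 14. With equal numbers of peaks in every list, the share of gained regions on X was 1.82%. Within 5 Mb of the first peak of a chromosome lay 4.52% of the gained and 3.41% of all regions, and within 5 Mb of the last peak 6.75% and 5.81%.

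**Figure D4:**
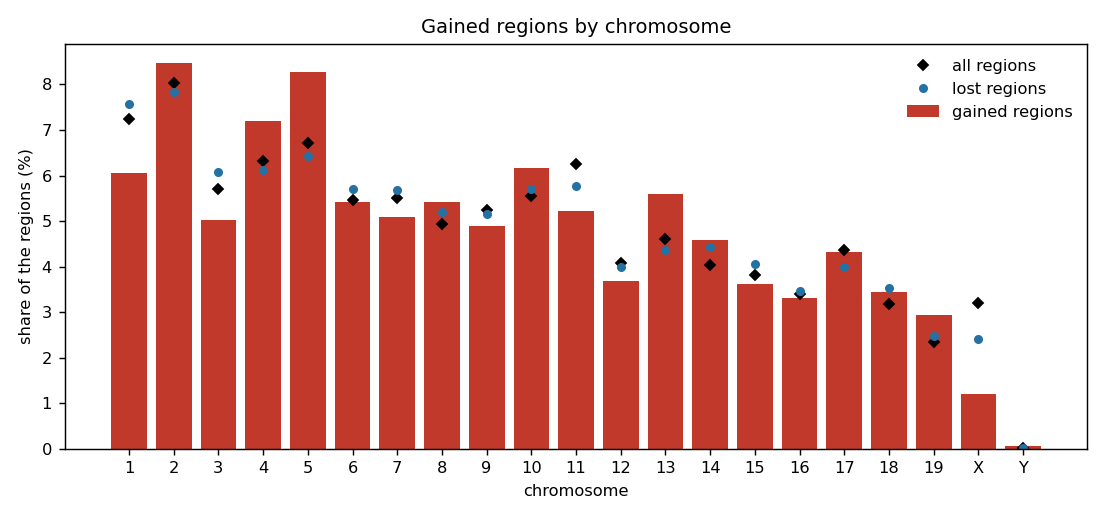
Share of the 1571 gained regions on each chromosome (bars, %), with the share of all 377189 regions (diamonds) and of the 13516 lost regions (circles). On X the bar stands at 1.21% and the diamond at 3.20%.

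The median distance from a gained region to the next was 317450 bp, and 369 members (23.5%) had another within 100 kb. Lost regions, which are more numerous, had a median distance of 48514 bp, so that the distances of the classes cannot be set against each other directly. Chained at 100 kb, 1202 members stood alone, 148 chains had 2, 16 had 3, 5 had 4 and 1 had 5. The chain of 5 lay on chromosome 4 from 145083346 to 145276421. Of the chains of 4, 2 lay farther along the same chromosome, from 145644984 to 145770163 and from 146724587 to 146892028. The others were chr11:3049729-3144159, chr2:165855992-165969797 and chr5:151144691-151361032.

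Distances to the peaks of the controls were spread widely. The rule keeps members from overlapping an ethanol peak of the Brg1 line, and the median distance to the nearest one was 3328 bp. Within 100 bp lay 28 members, within 1000 bp 403 (25.7%), and over 10 kb away 343 (21.8%), of which 5 were over 100 kb away. To the nearest region in all 4 lists the median distance was 14798 bp, and 140 members (8.91%) had one within 1000 bp.

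Distal chromosome 4 held the densest group. The megabase from 145000001 to 146000000 had 10 gained and 0 lost regions among 249 regions (4.02% gained), and the next one, to 147000000, had 7 gained and 1 lost among 227 (3.08%). Other megabases with many members also had as many or more lost ones, as on chromosome 2 from 165000001 to 166000000 (7 gained, 8 lost), on chromosome 4 from 149000001 to 150000000 (6 and 8) and on chromosome 18 from 37000001 to 38000000 (6 and 10). In the megabase with 10 members the lists held 85 and 82 peaks with ethanol and 118 and 74 with tamoxifen, which is 0.791 and 0.965 per 1000 peaks of the list against 1.39 and 1.59. In the one after it on chromosome 4, 70 and 58 peaks with ethanol stood against 104 and 58 with tamoxifen, or 0.651 and 0.682 against 1.23 and 1.25 per 1000. Relative to list length, both tamoxifen values thus lay above both ethanol values in each, in bins chosen for their gained regions. Short lists outside the Brg1 line also had high rates there. Replicate 2 of the 1 h groups (58532 peaks with DMSO, 50611 with ICRF-193) had 1.13 and 1.09 per 1000 in the first bin. DMSO 1 h replicate 3, the longest list (129880), had 0.608. In the second bin these values were 0.991 and 0.889 against 0.547. Tamoxifen replicate 1 (84763 peaks) and ethanol replicate 2 (85007) had lists of like length. Among the 10 bins with the most members, both tamoxifen rates of the Brg1 line also exceeded both ethanol rates in 3 others. These were chr4:149000001-150000000, chr18:37000001-38000000 (1.04 and 0.991 against 0.744 and 0.753) and chr8:73000001-74000000. In the remaining bins the tamoxifen and ethanol rates overlapped. The role of list length was not tested.

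The 10 members of that megabase were from 133 to 578 bp wide, where the median of all members was 350 bp. Beside the isolated strong region already described, the strongest lay from 145269352 to 145269601 on chromosome 4, with percentiles of 52.7 and 82.1, and 7 other libraries detected it. From 145769926 to 145770163 the region had percentiles of 36.2 and 23.0 and was found in no other library. The first in order, from 145083346 to 145083478 on chromosome 4 (36.2 and 75.5), held a peak in 2 DMSO lists outside the Brg1 line and in no ICRF-193 or Baf53a list. Per library outside the Brg1 line, 0 to 4 of these 10 members held a peak.

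The Baf53a line asks whether deletion of a second BAF subunit gave peaks at the same places. Its lists take no part in the gained rule beyond the merging of peaks, through which lists outside the Brg1 line joined the tamoxifen peaks of the 125 members above. In the lists as deposited it gave no separation. Of the 1571 members, 720 (45.8%) and 478 (30.4%) held a peak in the ethanol lists and 600 (38.2%) and 550 (35.0%) in the tamoxifen lists. The tamoxifen values lie inside the range of the ethanol ones, with means of 38.1% ± 10.9 for ethanol and 36.6% ± 2.25 for tamoxifen (SD, n = 2 each). List length moves with these shares, since the ethanol lists held 110503 and 83918 peaks and the tamoxifen lists 88729 and 86960. Both deleted groups, and no other group, received tamoxifen, and both carry the Cre that it switches on. No Cre line without a floxed BAF gene was given tamoxifen. In peaks shared by the deletions, an effect of tamoxifen or Cre thus cannot be told apart from loss of the subunits.

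With each list cut to its 46431 top-scoring peaks, the groups separated. Members then held a peak in 8.91% and 13.0% of cases in the Baf53a ethanol lists and in 15.1% and 17.2% in the tamoxifen lists (10.98% ± 2.93 and 16.2% ± 1.44, SD, n = 2 each). The gap between the nearest values was smaller than the spread between the ethanol passages. Among all 14 libraries outside the Brg1 line the Baf53a tamoxifen lists were the highest, and the 12 others ran from 8.91% to 13.0%. Over all 377189 regions the same 4 lists held 12.1%, 11.7%, 11.9% and 11.8%. Lost regions moved the other way at equal numbers, with a peak in 40.1% and 30.4% in Baf53a ethanol and in 27.8% and 24.99% in tamoxifen. This equal-length reading was chosen after the data were seen, and no p is given because the members were chosen with results known.

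Few members met the gained rule in both deletions. After Baf53a deletion 46 of the 1571 (2.93%) were gained, where 0.705% of all regions were, and 68 (4.33%) were lost, where 1.7% of all regions were. Both shares lie above their background, which includes regions found in a single library that could meet neither rule. Regions lost after Brg1 deletion were gained after Baf53a deletion in 154 of 13516 cases (1.14%) and lost in 1148 (8.49%). At equal numbers of peaks, 131 of 2578 gained regions (5.08%) were gained in both deletions, and the share over all regions was not computed at that setting. With single Brg1-line libraries left out 77 to 306 were, among more members. These were 0.943% to 2.78% of the members, where the share over all regions stayed at 0.705%. The 46 are 1.73% of the 2661 regions gained after Baf53a deletion.

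Of these shared gains, the strongest after Baf53a deletion lay on chromosome 3 from 118481091 to 118481424. It had percentiles of 65.3 and 82.0 with Baf53a tamoxifen and 36.2 and 48.4 with Brg1 tamoxifen, and a peak in 1 DMSO and 1 ICRF-193 list. On chromosome 5 from 105145807 to 105146158, percentiles were 54.6 and 76.1 after Baf53a deletion and 59.1 and 43.5 after Brg1 deletion. That region had no peak in any wild-type list or in any ethanol list, and so was found in the 4 deleted libraries alone. The third, chr4:114589794-114590048, was present in every one of the 5 DMSO lists. The next, chr13:98023271-98023662 and chr4:149720928-149721287, were each found in 2 wild-type lists.

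In wild-type cells the members were detected in DMSO and ICRF-193 lists broadly in step with list length. At 24 h, DMSO lists held a peak in 35.8% and 45.1% of the members and ICRF-193 lists in 33.5% and 21.1%. At 1 h the DMSO values were 50.0%, 13.9% and 46.1% and those with ICRF-193 were 36.7%, 10.6% and 33.8%. Replicate 2 of the 1 h groups has the shortest wild-type lists (58532 and 50611 peaks) and the lowest shares. With 46431 peaks each, these ranges closed to 9.68% and 10.7% against 9.74% and 10.8% at 24 h, and to 9.23% to 12.5% against 8.98% to 11.5% at 1 h. The groups overlapped in each case. Over all regions these 10 lists held 12.4% to 32.7% as deposited and 11.4% to 12.1% at equal numbers, so that the equal-length shares of the members stood at 0.787 to 1.03 times those of all regions.

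The gained rule was met with 24 h of ICRF-193 by 22 members (1.40%, where 0.71% of all regions were) and the lost rule by 120 (7.64%, where 2.7% were). For 1 h, where 3 lists of each group must be concordant, 3 members were gained (0.191%, where 0.0342% of all regions were) and 12 lost (0.764%, where 0.25% were). In both, more members were lost than gained, as over all regions.

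**Figure D5:**
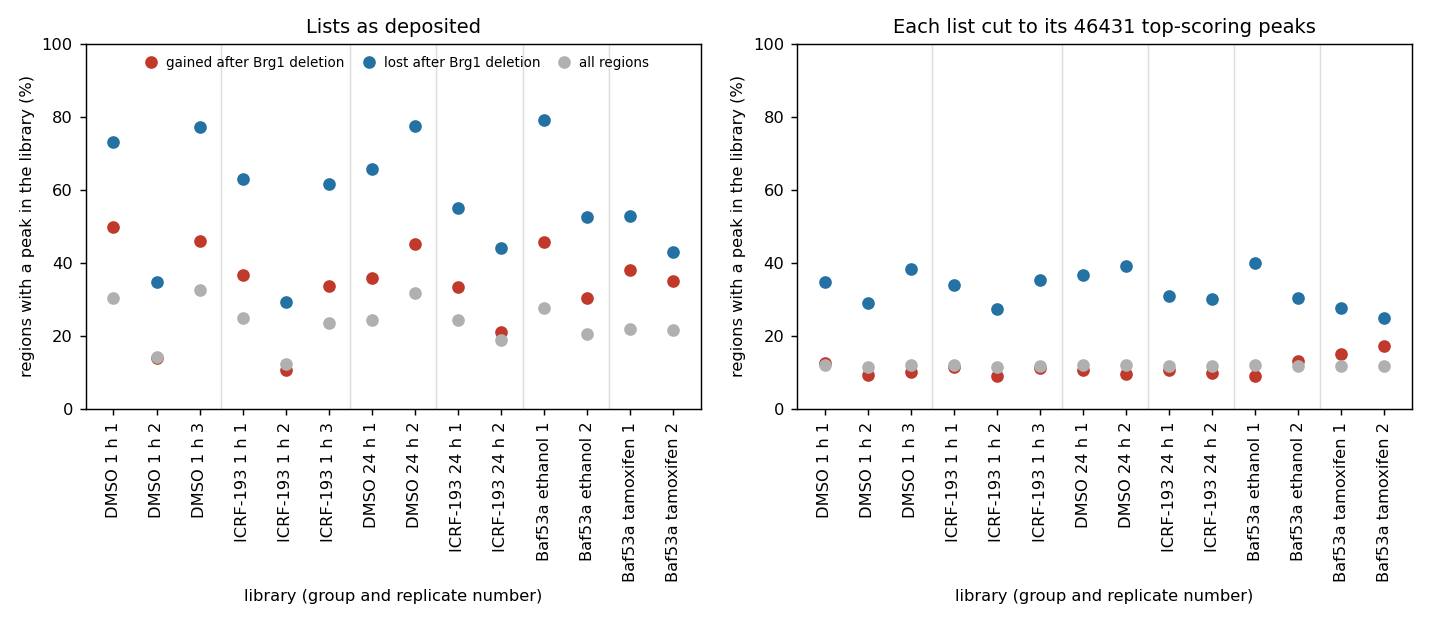
Percent of regions with a peak in each of the 14 libraries outside the Brg1 line (points, 1 per library), for gained, lost and all regions, with the lists as deposited (left) and cut to 46431 peaks each (right). On the right the gained regions reach 15.1% and 17.2% in the Baf53a tamoxifen lists and 8.91% to 13.0% in the 12 others.

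Whole megabases were tested in the contrasts that did not choose the members, as log2 of the number of peaks per bin relative to the list total. Of the 2235 bins of 1 Mb, limma called 0 after Baf53a deletion (0.0% higher and 0.0% lower at an adjusted p under 0.05), where 110 passed 0.05 before adjustment. For the 24 h drug treatment it called 1 higher and 2 lower (0.0447% and 0.0895%), 0 once any single library of that contrast was left out, 31 with only that contrast's libraries and 38 with the replicate block added. With only the Baf53a libraries it called 2 after Baf53a deletion, and 4 with the block. For 1 h it called 0 (0.0% in each direction), where 61 passed 0.05 before adjustment. None of the 10 bins with the most gained regions was among these 3. In chr4:145000001-146000000 there were 81 and 65 peaks with Baf53a ethanol and 79 and 69 with tamoxifen, a log2 change of 0.16 (SE 0.19, limma adjusted p = 0.973). In the next megabase, from 146000001 to 147000000, they held 76 and 69 against 80 and 79, a log2 change of 0.27 (SE 0.19, limma adjusted p = 0.973). With ICRF-193 for 24 h these 2 bins changed by 0.27 (SE 0.19) and 0.14 (SE 0.19) on the same scale, with limma adjusted p of 0.689 and 0.875. Over the 10 bins and all alternative settings the log2 change after Baf53a deletion ran from -0.30 to 0.44, and the lowest limma adjusted p was 0.375. The difference between 24 h and 1 h of ICRF-193 was not called in any bin either (limma, 0 of 2235; 96 unadjusted).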

How the data were processed

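The submitters' processing notes name build mm9 and, without saying what each did, MACS2, Bowtie (0.12.9) and edgeR (3.12.1). How reads were shifted, filtered or called into peaks is not given in the sources used here. Each sample has 1 list, as the authors deposited it: positions (other values of the deposited files) and a score per peak with no stated unit, used only as a percentile within its list. Region starts are printed counted from 1. Peaks were merged at 1 bp overlap, and the 377189 regions equal those of bedtools 2.31.1. Bins of 1 Mb with a mean of 10 or more peaks were fitted with limma 3.58.1 in R 4.3.3 (log2((peaks + 0.5) / list total × 1000), 1 term per group over 18 libraries, variance trend, Benjamini-Hochberg), after a test on simulated data. Other steps used Python 3.11.15, numpy 2.4.6, pandas 2.3.3 and scipy 1.17.1. Regions were named by rank: the 10 strongest, the 5 strongest in no other library, those in all 14 others, the 5 strongest also gained after Baf53a deletion, the 5 widest, the fullest bins, the longest chains and the 3 weakest. The members and lists were chosen with earlier results of these data known. P-values measure the spread between passages. Same-numbered 1 h libraries deviated together (correlations over 2235 bins of 0.15, 0.46 and 0.40), and those of the 24 h and Baf53a contrasts did not (0.015 and 0.025). No genome or annotation of build mm9 was used, so no gene or sequence is given.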

Additional observations from a re-analysis of the deposited data

How the results depend on the processing

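The number of gained regions rests on list length and on single libraries. With equal numbers of peaks it was 2578, and 686 of the 1571 members (43.7%) kept their peak in the shortened replicate 1 tamoxifen list. Leaving out single Brg1-line libraries gave 2828 to 24382, the highest without tamoxifen replicate 2 and 9539 without replicate 1, where a gain needs 1 list only; it was 3273 and 2828 without ethanol replicates 1 and 2. Dropping the lowest-scoring 25% of each list (1108), merging over 200 bp (1576) and merging the 4 Brg1-line lists alone (1618) stayed within 1.5 times. The share of gained regions with a peak outside the Brg1 line was 89.9%, 85.3% at equal numbers, 92.0% without the lowest-scoring 25%, and 43.8% to 94.4% with single libraries left out. The Baf53a tamoxifen share minus the ethanol share was -1.53 percentage points as deposited, -4.54 to -0.76 with single Brg1-line libraries left out, and turned to 5.19 at equal numbers with the same members and 3.90 with members chosen anew. The alternatives for this difference were added after the data were seen. The share within 100 kb of another member was 33.8% at equal numbers and 68.4% and 89.8% without tamoxifen replicates 1 and 2. The median of the members' mean percentile was 36.6 as deposited, 51.5 at equal numbers and 49.8 without the lowest-scoring 25%. Percentiles stayed those of the full lists, so low ones drop out with the peaks cut. With single Brg1-line libraries left out this median ran from 23.0 to 41.0. Bins called after Baf53a deletion numbered 2 with only that contrast's libraries and 4 with the replicate block added; with ICRF-193 for 24 h they numbered 8 at equal numbers, 6 with a pseudocount of 1, 0 with a mean of 5 or more peaks, 31 with only that contrast's libraries, 38 with the replicate block, and 0 to 0 without single libraries. The block changed no call at 1 h, with 0 bins. None of the 10 bins with the most members was called in any setting. The cause of these shifts was not tested, beyond the fewer lists that a gain needs when a library is left out.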
